A study of Homo sapiens with 12 samples.

Results

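Aminoacyl-tRNA synthetases are the enzymes that join each amino acid to its tRNA before translation. This account follows 35 human genes that encode them, 19 for enzymes of the cytosol and 16 for enzymes of the mitochondrion, listed by gene family; the list was drawn up with earlier results of these data known. Of the 35 genes, 32 could be measured, 17 cytosolic and 15 mitochondrial, among 19775 genes in all, through 67 probe sets that carry only that gene's symbol. The remaining 3, MARS1, QARS1 and TARS2, were represented only on probe sets that carry several symbols and were not analysed here.

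Expression was measured on 12 Affymetrix arrays of total RNA from KOPT-K1 and HPB-ALL, both established human T-cell acute lymphoblastic leukaemia lines. Each line was cultured for 24 hours with SAHM1 at 20 µM or with an equal amount of its solvent DMSO, so that there were 4 groups of 3 replicate cultures, with 1 array per culture. SAHM1 is a hydrocarbon-stapled peptide built after a stretch of the co-activator MAML1 and made to block assembly of the NOTCH transcription complex. Each group of 3 comes from a single line grown under one regimen, so p-values measure only the spread between cultures of that line.

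The deposited values set each array against the average DMSO culture of its own line, so the DMSO arrays of a line average 1 for each probe set and no signal level is kept. A gene's log2 ratio is the mean over its probe sets, and a difference is SAHM1 minus DMSO on that log2 scale, given with its standard error (SE). Differences were tested with limma across all 19775 genes and adjusted by the Benjamini-Hochberg method, and a gene is said to have risen or fallen where the adjusted p was under 0.05. In these bulk cultures, fewer cells with a transcript and less of it per cell cannot be told apart.

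The cytosolic enzymes charge the tRNAs used by ribosomes that translate nuclear mRNAs, and most mitochondrial enzymes come from separate nuclear genes whose products are imported to charge the tRNAs of the organelle. GARS1 and KARS1 are exceptions, since each gives both the cytosolic and the mitochondrial enzyme, and EPRS1 is a single protein that carries a glutamate and a proline enzyme. The enzymes fall into classes I and II by the fold of the catalytic domain, and several cytosolic members sit together in the multisynthetase complex. Many cytosolic synthetase genes are known targets of ATF4, the transcription factor whose translation rises when the kinase GCN2 senses uncharged tRNA, and MYC is known to bind E-box elements near genes of translation.

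The promoter sequences below are shown because the responses are counted further on for genes with and without the element TGATGNAA, to which ATF4 and its C/EBP partners are known to bind. Sequences are those of RefSeq on GRCh38.p14, from 250 bases before to 50 after each annotated start, and 30 of the 35 genes had an entry, 16 cytosolic and 14 mitochondrial. Both strands were searched, and each line gives the strand that reads TGATGNAA, with the match in capitals between 11 bases on either side.

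AARS1, chr16:70289675-70289704, plus strand: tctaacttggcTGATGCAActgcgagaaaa
CARS1, chr11:3057407-3057436, plus strand: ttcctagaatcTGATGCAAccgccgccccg
GARS1, chr7:30594834-30594863, minus strand: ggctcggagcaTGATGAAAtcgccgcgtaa
IARS1, chr9:92293692-92293721, plus strand: gcgcacggaggTGATGCAAcgcgctgaaaa
NARS1, chr18:57621804-57621833, minus strand: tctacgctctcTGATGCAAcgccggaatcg
TARS1, chr5:33440956-33440985, minus strand: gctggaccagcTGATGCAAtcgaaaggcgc
YARS2, chr12:32756076-32756105, minus strand: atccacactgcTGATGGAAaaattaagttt

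The element was present in 7 of the 16 cytosolic promoters, those above and that of MARS1, and in 1 of the 14 mitochondrial promoters, that of YARS2. Among all genes of the promoter table it was present in 4.46% of 27305, and among all promoters in 3.62% of 35116. In IARS1, CARS1 and MARS1 the leftmost base of the match lay 13, 2 and 4 bases before the start, in GARS1 33 and in AARS1 187, while in TARS1 and NARS1 it lay 3 and 15 bases after it. The free base of the element was G in YARS2, A in GARS1 and C in the other holders. In YARS2 the match lay 197 bases before the start. The full 250 bases before the start follow for GARS1, AARS1 and IARS1, which with CARS1 are the holders of the element with the largest difference in response between the lines. Each is given 5′ to 3′ on the strand of its gene, where the element, again in capitals, reads as its reverse complement. In IARS1 the E-box CACGTG is in capitals too.

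GARS1, chr7:30594628-30594877, plus strand: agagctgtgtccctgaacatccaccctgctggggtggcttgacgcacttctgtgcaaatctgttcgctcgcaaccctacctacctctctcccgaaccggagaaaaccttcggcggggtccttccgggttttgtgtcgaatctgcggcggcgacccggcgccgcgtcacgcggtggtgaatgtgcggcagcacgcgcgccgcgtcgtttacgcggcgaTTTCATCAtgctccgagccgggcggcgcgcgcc
AARS1, chr16:70289507-70289756, minus strand: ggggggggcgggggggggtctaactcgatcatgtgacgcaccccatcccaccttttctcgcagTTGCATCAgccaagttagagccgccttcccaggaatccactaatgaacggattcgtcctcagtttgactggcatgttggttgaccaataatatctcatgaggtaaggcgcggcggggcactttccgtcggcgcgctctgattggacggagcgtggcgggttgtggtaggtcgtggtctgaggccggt
IARS1, chr9:92293698-92293947, minus strand: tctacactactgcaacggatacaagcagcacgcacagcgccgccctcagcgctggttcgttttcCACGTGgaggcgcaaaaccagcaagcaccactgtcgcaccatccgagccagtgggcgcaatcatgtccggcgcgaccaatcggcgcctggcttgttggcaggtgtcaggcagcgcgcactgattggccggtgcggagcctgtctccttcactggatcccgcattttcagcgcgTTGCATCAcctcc

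Depth has no counterpart on arrays, and their number limits the precision. Probe sets for 18S ribosomal RNA, a measure of ribosomal carry-over in labelled RNA, were 2.19 higher (log2) under SAHM1 in HPB-ALL, at 1.35 to 1.89 against 1.05, -1.01 and -1.65 under DMSO, and 0.26 lower in KOPT-K1. Hybridization spikes, added in fixed amounts, were 0.83 higher under SAHM1 in KOPT-K1 and 0.39 lower in HPB-ALL. The labelled T-cell identity could not be checked by level on a ratio scale; of 7 T-cell markers 0 were called in KOPT-K1 (2 were lower at an unadjusted p under 0.05 in limma), while in HPB-ALL CD3G rose (0.71) and CD7 (-0.51) and LCK (-0.22) fell, and of 5 measured markers of other blood cells only MS4A1 was called, higher in KOPT-K1 (0.32). With the 18S level as a covariate all 3 marker calls in HPB-ALL were lost, at -0.02 for CD3G, -0.12 for CD7 and -0.19 for LCK. In KOPT-K1 the same fit called CD3G (-0.41, limma adjusted p = 0.0186) and CD7 (-0.30, limma adjusted p = 0.0223) lower. The call of MS4A1 was lost with the spike covariate and after quantile normalization.

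In KOPT-K1 the transcripts of most cytosolic synthetases fell under SAHM1. Of the 17 measured, 13 fell and 0 rose, against 13.2% of all genes that fell and 5.85% that rose; at an unadjusted p under 0.05 limma gave 14 lower and 0 higher. The median difference of the cytosolic genes was -0.65, and that of all genes was 0.00. In 14 of the 17 all 3 SAHM1 arrays lay below all 3 DMSO arrays, which was so for 21.6% of all genes. The mitochondrial genes moved less: 6 of 15 fell, 0 rose (8 and 0 at an unadjusted p under 0.05), their median was -0.18, and in 6 all SAHM1 arrays lay below all DMSO arrays.

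In HPB-ALL the same treatment split the cytosolic genes. Transcripts of 5 rose and those of 4 fell, against 4.96% of all genes that rose and 4.38% that fell, and the median was 0.07. All 3 SAHM1 arrays lay above all DMSO arrays in 8 cytosolic genes and below them in 6, against 13.4% and 15.7% of all genes. Of the 15 mitochondrial genes 0 rose and 2 fell, with 0 and 7 at an unadjusted p under 0.05 in limma, and their median was -0.15. In 8 of them all SAHM1 arrays lay below all DMSO arrays, and in 0 all lay above. The 18S level, given above, moved with the treatment in this line, and with it as a covariate 0 of these calls remained, as set out at the end.

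The plot of single arrays shows both contrasts at once. Taken array by array, the median log2 ratio over the 17 cytosolic genes was -0.72, -0.70 and -0.56 in the SAHM1 cultures of KOPT-K1, and 0.06, 0.08 and 0.07 in those of HPB-ALL. The corresponding medians over the mitochondrial genes were -0.13, -0.28 and -0.16 in KOPT-K1 and -0.19, -0.15 and -0.11 in HPB-ALL.

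**Figure D1:**
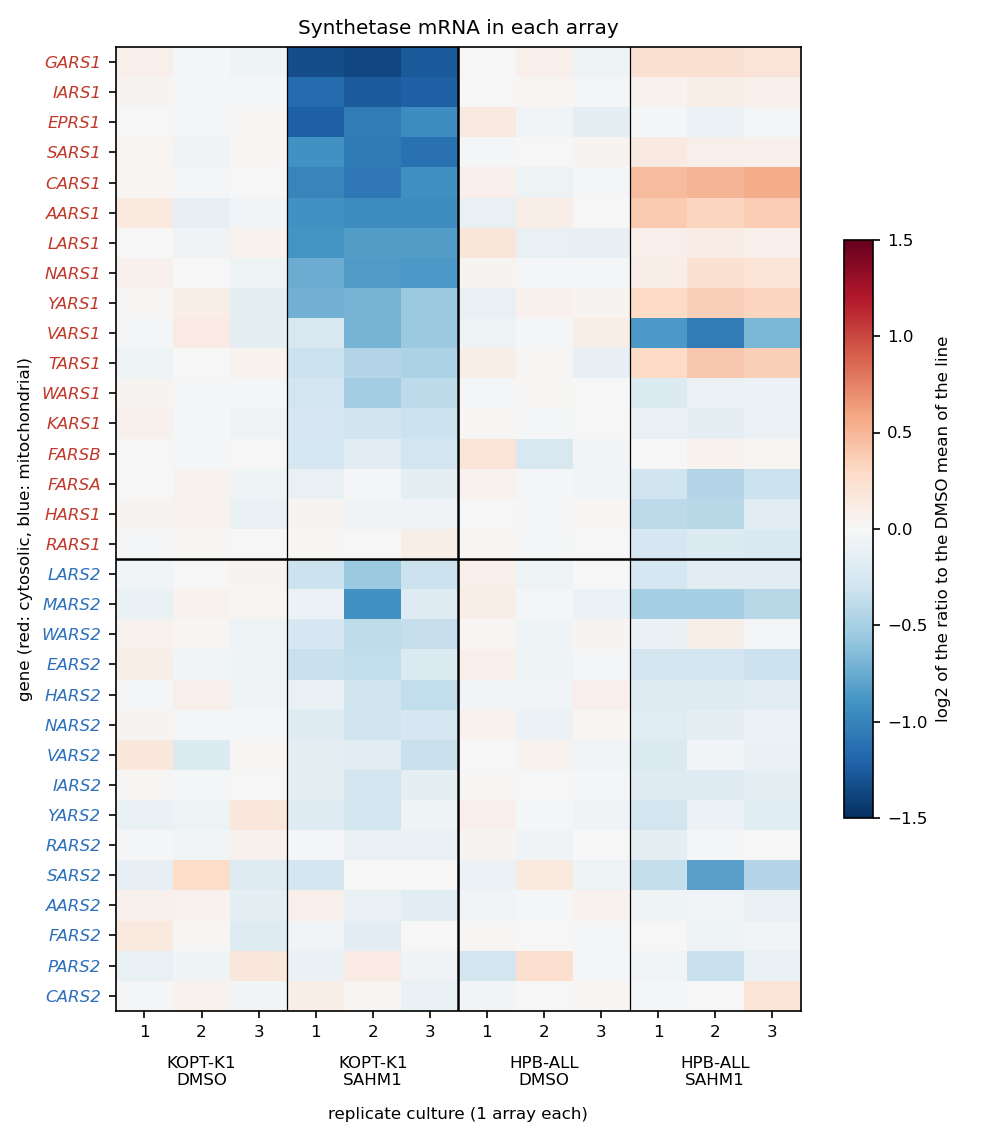
Log2 ratio to the DMSO mean of the line (colour) for 32 synthetase genes (vertical axis, cytosolic names in red above the line, mitochondrial in blue) in each of the 12 arrays (horizontal axis, by line, treatment and replicate). The SAHM1 arrays of KOPT-K1 are dark blue for the upper 9 cytosolic genes, while those of HPB-ALL are red for CARS1, AARS1, YARS1 and TARS1 and blue for VARS1.

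GARS1, which encodes the glycine enzyme of both compartments, had the lowest difference of the family in KOPT-K1 and ranked 22 from the lowest among all 19775 genes. Its ratio was 1.05, 0.991 and 0.956 in the DMSO cultures and 0.398, 0.387 and 0.417 in the SAHM1 cultures. All treated cultures were below every control, and the level under SAHM1 was 2.49-fold lower (log2 difference -1.32 ± 0.06 SE, n = 3 against 3, limma adjusted p = 8.92e-08). IARS1, the isoleucine enzyme of the multisynthetase complex, stood at rank 26, with ratios of 1.03, 0.977 and 0.992 under DMSO and 0.451, 0.421 and 0.427 under SAHM1. The 2 sets of cultures did not overlap, and the level under SAHM1 was 2.31-fold lower (-1.21 ± 0.05, limma adjusted p = 6.69e-08). The ratio of EPRS1, the fused glutamate and proline enzyme, was 1.00, 0.991 and 1.01 under DMSO and 0.429, 0.482 and 0.519 under SAHM1. That is 2.10-fold lower (-1.07 ± 0.08, limma adjusted p = 4.49e-06), with the treated cultures more spread out than those of GARS1.

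SARS1, the serine enzyme, which also charges the selenocysteine tRNA, had ratios of 1.02, 0.963 and 1.01 under DMSO and 0.533, 0.478 and 0.459 under SAHM1 in KOPT-K1. It was 2.04-fold lower (-1.03 ± 0.06, limma adjusted p = 9.17e-07). CARS1, the cysteine enzyme, had ratios of 1.02, 0.976 and 1.00 under DMSO and 0.503, 0.476 and 0.527 under SAHM1, 1.99-fold lower (-0.99 ± 0.06). AARS1, the alanine enzyme, had ratios of 1.11, 0.919 and 0.973 under DMSO against 0.533, 0.52 and 0.522, 1.90-fold lower (-0.93 ± 0.08). In none of these 3 genes did a treated culture come near a control.

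LARS1, the leucine enzyme that is also known as a leucine sensor of the mTORC1 pathway, had ratios of 0.994, 0.966 and 1.04 under DMSO and 0.539, 0.559 and 0.558 under SAHM1 in KOPT-K1 (-0.86 ± 0.08, limma adjusted p = 2.29e-05). NARS1, the asparagine enzyme, had ratios of 1.05, 1.00 and 0.952 under DMSO against 0.599, 0.554 and 0.549 (-0.82 ± 0.06, adjusted p = 5.67e-06 in limma). YARS1, the tyrosine enzyme, had ratios of 1.01, 1.07 and 0.914 under DMSO against 0.607, 0.617 and 0.681 (-0.65 ± 0.08, adjusted p = 0.000157 in limma). In all 3 genes the treated cultures stood well apart from the controls.

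Smaller falls in KOPT-K1 were measured for the valine enzyme VARS1 (-0.49 ± 0.12, limma adjusted p = 0.0139), the threonine enzyme TARS1 (-0.41 ± 0.07), the tryptophan enzyme WARS1 (-0.40 ± 0.07) and the lysine enzyme KARS1 (-0.29 ± 0.05). VARS1 was the most variable of them, at 0.847, 0.616 and 0.679 under SAHM1 against 0.98, 1.09 and 0.914 under DMSO. Its call ended when replicate 2 of either treatment in KOPT-K1 was left out, at -0.42 without that DMSO culture and -0.39 without that SAHM1 culture. The calls of all 4 genes were lost with the spike level as a covariate (VARS1 -0.36, TARS1 -0.39, WARS1 -0.37 and KARS1 -0.24) and after quantile normalization (-0.29, -0.23, -0.24 and -0.17). The 4 cytosolic genes that did not pass the test in KOPT-K1 were both subunits of the phenylalanine enzyme, FARSA (-0.10 ± 0.06) and FARSB (-0.23 ± 0.09, limma adjusted p = 0.0885), the histidine enzyme HARS1 (-0.02 ± 0.08) and the arginine enzyme RARS1 (0.03 ± 0.05).

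In HPB-ALL the genes that rose were CARS1, AARS1, TARS1, YARS1 and GARS1, each of which had fallen in KOPT-K1. Opposite calls of this kind, lower in KOPT-K1 and higher in HPB-ALL, were made for 1.87% of all genes, and for 5 of the 17 cytosolic and 0 of the 15 mitochondrial synthetases. The ratio of CARS1 in HPB-ALL was 1.06, 0.949 and 0.991 under DMSO and 1.39, 1.42 and 1.47 under SAHM1. All treated cultures were above the controls, 1.43-fold higher (0.52 ± 0.06, limma adjusted p = 0.000461). AARS1 had ratios of 0.924, 1.07 and 1.00 under DMSO and 1.31, 1.25 and 1.30 under SAHM1, 1.29-fold higher (0.37 ± 0.08, limma adjusted p = 0.0104).

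TARS1 rose from ratios of 1.06, 1.01 and 0.919 to 1.23, 1.33 and 1.28 in HPB-ALL (0.36 ± 0.07, limma adjusted p = 0.00772). YARS1 rose from 0.928, 1.04 and 1.03 to 1.23, 1.29 and 1.25 (0.33 ± 0.08, limma adjusted p = 0.0165). In both genes every treated culture exceeded every control. GARS1 was closest to the threshold, with ratios of 0.998, 1.05 and 0.947 under DMSO and 1.18, 1.17 and 1.14 under SAHM1 (0.22 ± 0.06, limma adjusted p = 0.0464). Its cultures did not overlap either, but the call was lost without each of 10 of the 12 arrays, left out in turn, with differences of 0.18 to 0.26. The call of YARS1 was lost without replicate 2 of the SAHM1 cultures of HPB-ALL (0.31).

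The cytosolic genes that fell in HPB-ALL were VARS1, FARSA, HARS1 and RARS1. VARS1 was lowest, with ratios of 0.952, 0.983 and 1.06 under DMSO against 0.552, 0.482 and 0.622 under SAHM1, 1.82-fold lower (-0.86 ± 0.12, limma adjusted p = 0.001). It was the only cytosolic synthetase called lower in both lines, a joint call made for 1.28% of all genes. FARSA fell by 0.35 on the log2 scale (SE 0.06, limma adjusted p = 0.00452). Neither its partner FARSB (0.06 ± 0.09) nor the mitochondrial phenylalanine enzyme FARS2 (-0.04 ± 0.08) passed the test. The probe sets of both subunits were uneven. Of the 2 for FARSA 1 was called (-0.50) and the other was not (-0.20). Of the 3 for FARSB, which ran from -0.36 to 0.36, the lowest was called lower. HARS1 (-0.32 ± 0.08, limma adjusted p = 0.0192) and RARS1 (-0.23 ± 0.05, limma adjusted p = 0.0191) fell in HPB-ALL and did not pass in KOPT-K1. Each of these 2 calls was lost without any one of 4 arrays of HPB-ALL, at -0.27 to -0.40 for HARS1 and -0.21 to -0.24 for RARS1 over all 12 arrays left out in turn.

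The remaining cytosolic genes did not pass in HPB-ALL. IARS1 (0.07 ± 0.05), SARS1 (0.10 ± 0.06), LARS1 (0.10 ± 0.08) and EPRS1 (-0.04 ± 0.08), all among those furthest below the controls in KOPT-K1, had means close to 0. Single probe sets in HPB-ALL lay on both sides of 0 for SARS1 (-0.13 and 0.33), LARS1 (-0.17 to 0.62) and EPRS1 (-0.25 to 0.15). Of those probe sets 0 were called. NARS1 stood at 0.18 ± 0.06 (limma adjusted p = 0.112), with all 3 treated cultures (1.07, 1.17 and 1.15) above the controls (1.03, 0.984 and 0.985). WARS1 (-0.13 ± 0.07) and KARS1 (-0.11 ± 0.05) were slightly below 0.

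**Figure D2:**
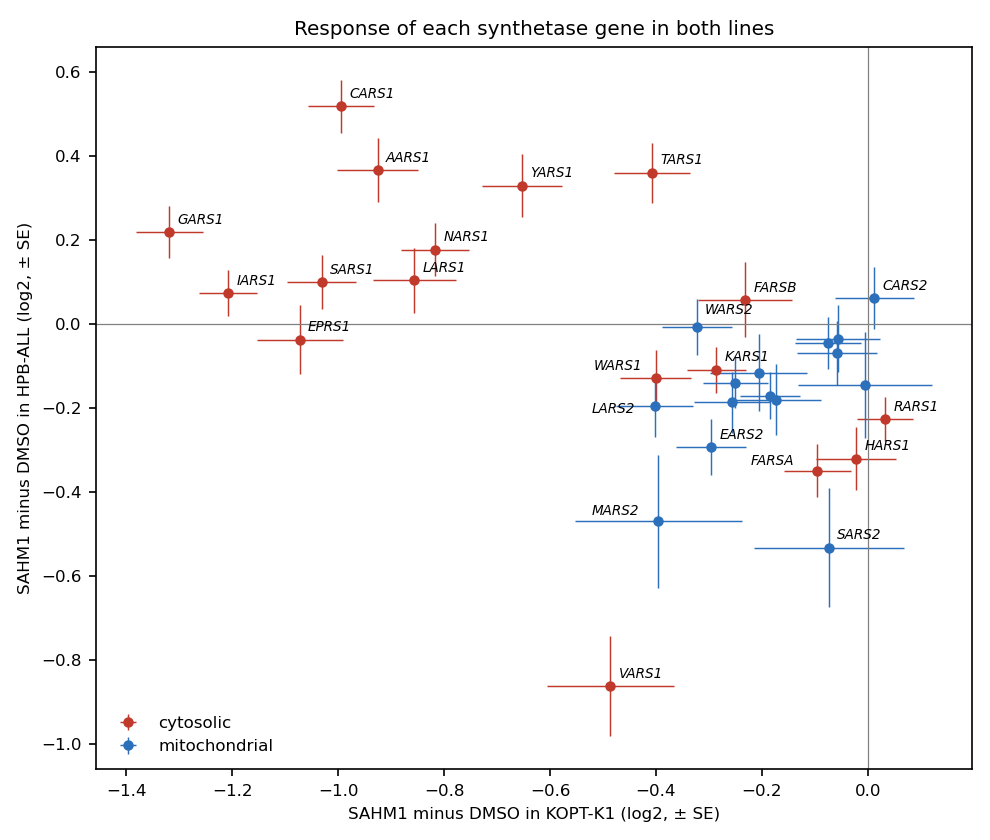
Difference SAHM1 minus DMSO in KOPT-K1 (horizontal axis, log2) against that in HPB-ALL (vertical axis, log2) for 32 genes, with points coloured by compartment and bars of 1 SE from limma. Cytosolic genes spread from GARS1 at -1.32 in KOPT-K1 to VARS1 at -0.86 in HPB-ALL, while most mitochondrial genes gather near the origin and below it.

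The difference between the lines was tested directly, as the response of HPB-ALL minus that of KOPT-K1. It was called higher for 10 of the 17 cytosolic genes and lower for 1, against 11.4% and 5.41% of all genes, and the median was 0.96, against -0.03 over all genes. The 10 genes were GARS1 (1.54 ± 0.09), CARS1 (1.51 ± 0.09), AARS1 (1.29 ± 0.11), IARS1 (1.28 ± 0.08), SARS1 (1.13 ± 0.09), EPRS1 (1.04 ± 0.11), NARS1 (0.99 ± 0.09), YARS1 (0.98 ± 0.11), LARS1 (0.96 ± 0.11) and TARS1 (0.77 ± 0.10). Their limma adjusted p-values ran from 5.99e-07 for GARS1 to 0.000521 for TARS1. RARS1 was the gene called lower (-0.26 ± 0.08, limma adjusted p = 0.0334). Among the 15 mitochondrial genes the difference was called for WARS2 alone (0.32 ± 0.09, limma adjusted p = 0.0375), and the median was 0.02. The call of RARS1 was lost without each of 9 of the 12 arrays, left out in turn (-0.28 to -0.23), and that of WARS2 without each of 8 (0.27 to 0.36), while those of the 10 genes named first held without any single array. Quantile normalization ended the calls of LARS1 and TARS1 in this test, and the 18S level as a covariate that of TARS1.

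Across the cytosolic genes, differences in the 2 lines tended to run in opposite order (Pearson's r = -0.519, Spearman's rho = -0.574, n = 17 genes), and across the mitochondrial genes in the same order (r = 0.36, rho = 0.464, n = 15 genes). These are correlations over genes measured on the same arrays, and genes are not independent replicates. The lines do not share control samples.

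The mitochondrial genes that fell in KOPT-K1 were LARS2, WARS2, EARS2, NARS2, HARS2 and IARS2, the enzymes for leucine, tryptophan, glutamate, asparagine, histidine and isoleucine. LARS2 had ratios of 0.976, 0.996 and 1.03 under DMSO and 0.799, 0.679 and 0.797 under SAHM1 (-0.40 ± 0.07, limma adjusted p = 0.00268). WARS2 had ratios of 1.03, 1.01 and 0.951 under DMSO and 0.838, 0.768 and 0.789 under SAHM1 (-0.32 ± 0.07, limma adjusted p = 0.00548). EARS2 had ratios of 1.06, 0.971 and 0.959 under DMSO and 0.792, 0.777 and 0.869 under SAHM1 (-0.30 ± 0.07, limma adjusted p = 0.00905). In each, the treated cultures lay below all controls. NARS2 (-0.25 ± 0.06), HARS2 (-0.26 ± 0.07) and IARS2 (-0.18 ± 0.06, limma adjusted p = 0.0381) were nearer the threshold. The call of IARS2 was lost without each of 8 of the 12 arrays, left out in turn. That of HARS2 was lost without each of 4, and that of NARS2 without each of 2. Without replicate 1 of the DMSO or replicate 2 of the SAHM1 cultures of KOPT-K1, the number of mitochondrial genes called lower was 3 in place of 6.

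EARS2 was also called lower in HPB-ALL (-0.29 ± 0.07, limma adjusted p = 0.0165), from ratios of 1.06, 0.958 and 0.982 to 0.826, 0.817 and 0.801. It was the only mitochondrial synthetase that fell in both lines, and the difference between its responses was 0.00 ± 0.09. That value is a mean over 4 uneven probe sets, whose differences between the lines ran from -0.30 to 0.41. Of these probe sets 2 were called lower in KOPT-K1 and 1 in HPB-ALL. SARS2, the mitochondrial serine enzyme, fell in HPB-ALL (-0.53 ± 0.14, limma adjusted p = 0.0334) from 0.94, 1.11 and 0.952 to 0.781, 0.568 and 0.738, and did not pass in KOPT-K1 (-0.07 ± 0.14). Both HPB-ALL calls ended without replicate 2 or 3 of the SAHM1 cultures of that line, and that of SARS2 also without replicate 2 or 3 of the DMSO cultures (-0.62 to -0.39 over all arrays left out in turn). MARS2, the methionine enzyme, missed the threshold in both lines (-0.40 ± 0.16 and -0.47 ± 0.16); in KOPT-K1 its treated cultures stood at 0.94, 0.534 and 0.872, 1 of them far below the other two.

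The other 7 mitochondrial genes did not pass in either line. AARS2 (-0.06 ± 0.08 in KOPT-K1 and -0.07 ± 0.08 in HPB-ALL), CARS2 (0.01 ± 0.07 and 0.06 ± 0.07), FARS2 (-0.06 ± 0.08 in KOPT-K1) and RARS2 (-0.07 ± 0.06 and -0.04 ± 0.06) lay near 0. PARS2, the proline enzyme, was measured less precisely (-0.01 ± 0.13 and -0.15 ± 0.13). VARS2 stood at -0.21 ± 0.09 in KOPT-K1 and -0.12 ± 0.09 in HPB-ALL, and YARS2 at -0.17 ± 0.08 and -0.18 ± 0.08.

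Enzymes for the same amino acid could be set side by side in 15 pairs, counting EPRS1 with EARS2 and with PARS2 and each FARS subunit with FARS2. In KOPT-K1 the cytosolic gene had the lower difference in 13 of the 15. The gap was wide for alanine (AARS1 -0.93, AARS2 -0.06), cysteine (CARS1 -0.99, CARS2 0.01), serine (SARS1 -1.03, SARS2 -0.07) and isoleucine (IARS1 -1.21, IARS2 -0.18). It was small for tryptophan (WARS1 -0.40, WARS2 -0.32). The exceptions were arginine (RARS1 0.03, RARS2 -0.07) and histidine (HARS1 -0.02, HARS2 -0.26). HARS1 and HARS2 are neighbours on chromosome 5 whose annotated starts lie head to head, 85 bases apart, and only HARS2 was called in KOPT-K1 and only HARS1 in HPB-ALL; the difference between the 2 genes was not tested. In HPB-ALL the cytosolic gene stood above its partner in 10 of the 15 pairs.

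**Figure D3:**
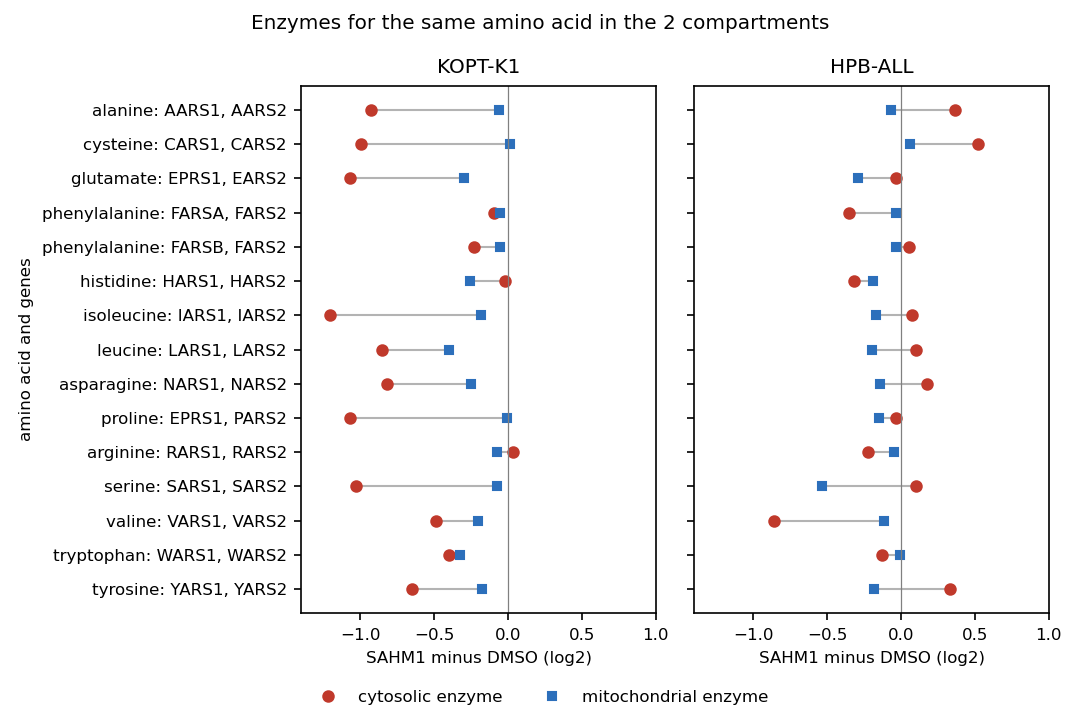
Difference SAHM1 minus DMSO (horizontal axis, log2) of the cytosolic (red circle) and mitochondrial (blue square) gene for each amino acid (vertical axis), in KOPT-K1 on the left and HPB-ALL on the right. In KOPT-K1 the red circle lies left of the blue square in 13 of 15 pairs; in HPB-ALL it lies right of it in 10.

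By catalytic class, the cytosolic genes of KOPT-K1 gave similar counts. Of the 7 with class I folds alone 6 fell (median -0.65), as did 6 of the 9 of class II (median -0.41), and EPRS1, with both, fell too. In HPB-ALL 2 class I genes rose and 2 fell, and 3 class II genes rose and 2 fell. Of the 5 measured members of the multisynthetase complex, EPRS1, IARS1, LARS1, KARS1 and RARS1, 4 fell in KOPT-K1 (median -0.86), and 0 rose and 1 fell in HPB-ALL (median -0.04). Of the 12 outside the complex 9 fell in KOPT-K1 (median -0.57), and 5 rose and 3 fell in HPB-ALL (median 0.14). For comparison, 13.2% of all genes fell and 5.85% rose in KOPT-K1, and 4.38% fell and 4.96% rose in HPB-ALL. The classes and the complex were not tested against the other genes.

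By side chain, enzymes for aliphatic and polar amino acids had the lowest medians in KOPT-K1. EPRS1 (-1.07), which serves an acidic and an aliphatic amino acid, was put in neither class. All 5 other aliphatic members (AARS1, GARS1, IARS1, LARS1 and VARS1) and all 4 polar members (CARS1, NARS1, SARS1 and TARS1) fell, with medians of -0.93 and -0.91. Of the 4 aromatic members WARS1 and YARS1 fell and FARSA and FARSB did not pass (median -0.32). Of the 3 basic members KARS1 fell, while HARS1 and RARS1 did not pass (median -0.02). In HPB-ALL the polar members had the highest median, 0.27, with 2 risers, and the basic ones the lowest, -0.23, with 2 that fell. Among all genes, 13.2% fell in KOPT-K1, while 4.96% rose and 4.38% fell in HPB-ALL. Of the mitochondrial genes 2 of 6 aliphatic, 1 of 3 aromatic, 1 of 3 polar and 1 of 2 basic members fell in KOPT-K1. Their medians were -0.20, -0.17, -0.07 and -0.17, so the polar members, low among the cytosolic genes, were highest there. Single cytosolic genes crossed the order of the medians, since YARS1 (-0.65) lay below VARS1 (-0.49) and TARS1 (-0.41). These classes hold few genes each and were not tested against each other.

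Of the 6 measured cytosolic genes that hold it (AARS1, CARS1, GARS1, IARS1, NARS1 and TARS1), 6 fell in KOPT-K1, with a median of -0.96. In HPB-ALL 4 of them rose and 0 fell, with a median of 0.29. In all 6 every treated culture lay above every control there, which was so for 13.4% of all genes. Among all genes, 13.2% fell in KOPT-K1, while 4.96% rose and 4.38% fell in HPB-ALL. Of the 8 cytosolic genes in the promoter table without the element, 4 fell in KOPT-K1 (median -0.26), and 0 rose and 3 fell in HPB-ALL (median -0.12). LARS1, VARS1 and YARS1 had no promoter entry and are in neither group. YARS1 fell in KOPT-K1 (-0.65) and rose in HPB-ALL (0.33). LARS1 fell in KOPT-K1 (-0.86) and did not pass in HPB-ALL (0.10), and VARS1 fell in both lines (-0.49 and -0.86). EPRS1 and SARS1, without the element in this window, were also called in the test of the difference between the lines. With the 18S level as a covariate, described at the end, 0 of the 4 risers remained called in HPB-ALL. YARS2, the mitochondrial holder, did not pass in either line. These are counts over a few genes, the holders were not tested against the others, and the presence of the letters does not show that a factor binds there.

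The E-box CACGTG, present in 7.26% of all promoters and in 8.77% of genes, was found in IARS1 alone among the cytosolic members and in CARS2, EARS2 and MARS2 among the mitochondrial ones. Of these 4 genes IARS1 and EARS2 fell in KOPT-K1. The element known from interferon-stimulated genes, read as GAAA, any 2 bases, GAAA, was present in 3.57% of promoters and in 4.38% of genes, and was found in WARS1 and EARS2. WARS1 is known as a gene induced by interferon gamma, and its ratio under SAHM1 was 0.817, 0.695 and 0.765 in KOPT-K1 cultures, against 0.865, 0.939 and 0.942 in HPB-ALL cultures.

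Genes with more than 1 probe set allow a check within the gene, since the probe sets read different stretches of the transcript. In a fit on single probe sets, 24 of the 34 cytosolic probe sets were lower in KOPT-K1 and 0 higher, against 9.79% of all probe sets that were lower, and in HPB-ALL 6 were higher and 5 lower, against 3.09% and 2.06% of all probe sets. EPRS1 had 3 of 3 probe sets called lower in KOPT-K1, between -1.09 and -1.05, and LARS1 4 of 4, between -1.29 and -0.37. All probe sets of both genes carry the suffix _s_at, which marks a sequence shared by several transcripts, or _x_at, which marks possible cross-hybridisation. Their agreement is therefore a limited check. CARS1 was less even: 3 of its 4 probe sets were called in both lines, and the remaining one stood at -0.08 in KOPT-K1 and 0.03 in HPB-ALL, so that the gene mean understates the others, which reached -1.69 and 0.76.

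TARS1 rested on 2 probe sets that disagreed in KOPT-K1, 1 called at -1.06 and 1 at 0.25, while both were above 0 in HPB-ALL (0.29 and 0.43). YARS1 had 1 probe set called at -1.04 and 1 at -0.26 in KOPT-K1; without the former, whose suffix marks a sequence shared by several transcripts, its call there was lost. VARS1 had 1 called at -0.81 and 1 at -0.16, with both called lower in HPB-ALL (-1.04 and -0.69). FARSB, not called as a gene, had 1 of 3 probe sets called lower in each line, at -0.57 and -0.36. The mitochondrial genes had 7 of 33 probe sets lower in KOPT-K1 and 0 higher, and 1 lower and 0 higher in HPB-ALL. GARS1, AARS1, IARS1, NARS1, HARS1 and RARS1 had 1 probe set each, so no such check was possible for them.

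**Figure D4:**
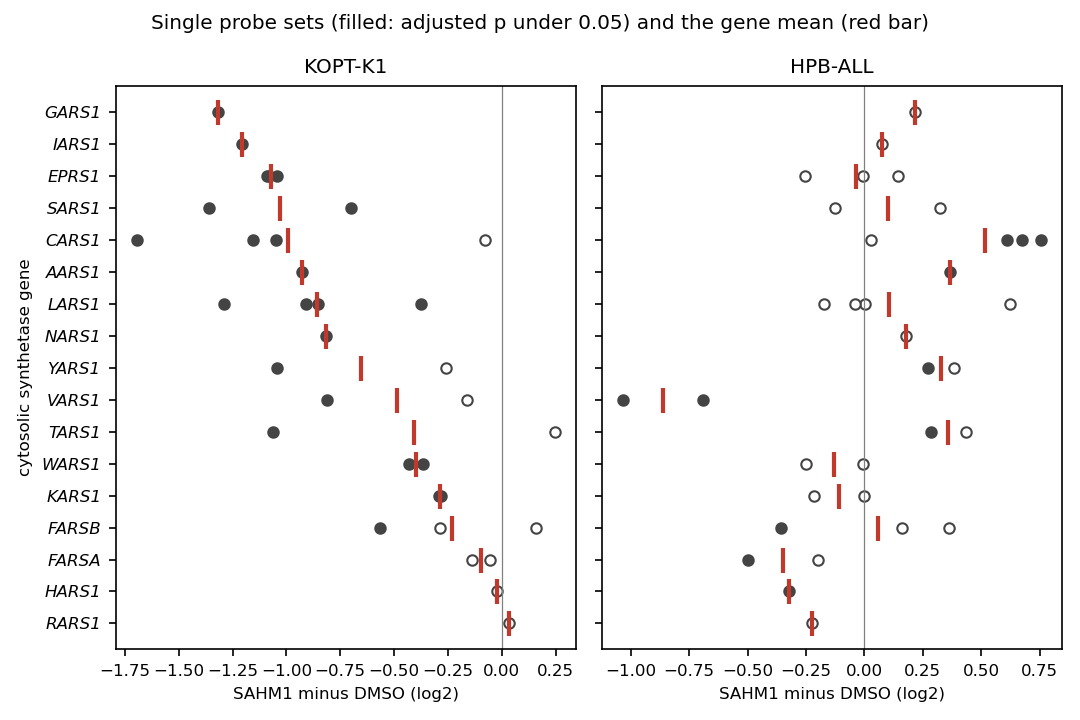
Difference SAHM1 minus DMSO (horizontal axis, log2) of each probe set of the 17 cytosolic genes (vertical axis), in KOPT-K1 on the left and HPB-ALL on the right, filled where the adjusted p was under 0.05, with a red bar at the gene's mean. EPRS1 probe sets coincide near -1.07 in KOPT-K1, while those of TARS1 and CARS1 lie far apart.

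Other genes of tRNA biology were examined as lists. Over all genes, 13.2% fell and 5.85% rose in KOPT-K1, and 4.38% fell and 4.96% rose in HPB-ALL. Of 12 charging partners 9 were measured; in KOPT-K1 3 fell and 2 rose, and in HPB-ALL limma called 0 in either direction, also at an unadjusted p under 0.05. Those that fell were SEPSECS (-0.59 ± 0.09), which completes selenocysteine on the tRNA that SARS1 loads, and QRSL1 (-0.41 ± 0.07) and GATC (-0.32 ± 0.06), subunits of the mitochondrial amidotransferase that makes glutaminyl-tRNA. The remaining subunit, GATB (0.34 ± 0.08), rose, as did PSTK (0.31 ± 0.10), the kinase that acts just before SEPSECS, which is named after its values were seen. Subunits of 1 enzyme thus moved in opposite directions in KOPT-K1. With the spike level as a covariate the differences kept their direction (SEPSECS -0.41, QRSL1 -0.28, GATC -0.29, GATB 0.30 and PSTK 0.52), and only that of PSTK remained called. The call of PSTK was lost with the 18S covariate (0.30, limma adjusted p = 0.0628), and quantile normalization ended all 5 calls.

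Of 22 genes of tRNA maturation and export 21 were measured; 6 fell and 0 rose in KOPT-K1 (8 and 3 at an unadjusted p under 0.05 in limma), and 4 fell and 0 rose in HPB-ALL (8 and 0), with medians of -0.08 and -0.10. The shares of all genes that fell were 13.2% in KOPT-K1 and 4.38% in HPB-ALL, and 5.85% and 4.96% rose. XPOT, the exportin that carries mature tRNA out of the nucleus, stood out in KOPT-K1. Its ratio was 0.936, 1.04 and 1.02 under DMSO and 0.466, 0.469 and 0.497 under SAHM1 (-1.07 ± 0.06, limma adjusted p = 4.87e-07). In HPB-ALL it stood at 0.11 ± 0.06, and the difference between the lines was 1.17 ± 0.09, in the range of the synthetases named above. NSUN2, a tRNA methyltransferase (-0.54 ± 0.07 and -0.27 ± 0.07), and the RNase P subunits RPP40 (-0.46 ± 0.06 and -0.33 ± 0.06) and POP1 (-0.41 ± 0.08 and -0.40 ± 0.08) fell in both lines. TSEN15, of the splicing endonuclease, fell in KOPT-K1 (-0.41 ± 0.06), and SSB, which binds new tRNA ends, fell in HPB-ALL (-0.28 ± 0.06). With the 18S level as a covariate 0 of the 4 calls in HPB-ALL remained, while the call of XPOT in KOPT-K1 held with the spike covariate (-1.07 ± 0.09) and after quantile normalization (-0.64 ± 0.07). Quantile normalization ended the KOPT-K1 calls of NSUN2 (-0.33), RPP40 (-0.28), POP1 (-0.25) and TSEN15 (-0.25), and the spike covariate that of POP1 (-0.36).

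Among 8 genes that sense uncharged tRNA or lie downstream of that signal, ASNS, TRIB3 and ATF4 were called in opposite directions in the 2 lines. In KOPT-K1 6 fell and 0 rose, against 13.2% and 5.85% of all genes. In HPB-ALL 3 rose and 1 fell, against 4.96% and 4.38% of all genes. ASNS, asparagine synthetase and a known ATF4 target, had ratios of 1.08, 0.965 and 0.951 under DMSO and 0.421, 0.384 and 0.385 under SAHM1 in KOPT-K1 (-1.33 ± 0.07, limma adjusted p = 2.26e-07). In HPB-ALL the same gene went from 1.07, 0.96 and 0.97 to 1.25, 1.27 and 1.28 (0.34 ± 0.07, limma adjusted p = 0.00931). Its treated cultures were below all controls in the first line and above all of them in the second.

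TRIB3, a pseudokinase that ATF4 induces, fell in KOPT-K1 (-0.88 ± 0.08) and rose in HPB-ALL (0.84 ± 0.08, limma adjusted p = 0.000124), where it went from 1.01, 0.925 and 1.06 to 1.66, 1.81 and 1.89. ATF4 itself fell to 0.798, 0.77 and 0.768 in KOPT-K1 (-0.36 ± 0.06) and rose to 1.17, 1.15 and 1.19 in HPB-ALL (0.23 ± 0.06, limma adjusted p = 0.0299). EIF2S1, the substrate of GCN2 (-0.41 ± 0.06), and the co-activator GCN1 (-0.28 ± 0.09) also fell in KOPT-K1. So did EIF2AK4, the gene of GCN2 itself (-0.43 ± 0.09), which is named after its values were seen. GCN1 fell in HPB-ALL too (-0.35 ± 0.09). With the 18S level as a covariate TRIB3 remained called higher in HPB-ALL (0.89 ± 0.14, limma adjusted p = 0.027), while ASNS (0.25 ± 0.12), ATF4 (0.32 ± 0.09) and GCN1 (-0.19 ± 0.14) did not pass. In KOPT-K1 quantile normalization ended the calls of ATF4 (-0.22), EIF2S1 (-0.25), EIF2AK4 (-0.25) and GCN1 (-0.16). The spike covariate ended those of GCN1 (-0.34) and EIF2AK4 (-0.26), while ASNS and TRIB3 remained called in both. ATF4 is controlled mainly at translation, which arrays do not read.

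The 18S and spike levels given above moved with the treatment, so the fits were repeated with each as a covariate. With the spike level, 9 of the 17 cytosolic and 0 of the 15 mitochondrial genes were called lower in KOPT-K1, against 2.56% of all genes; at an unadjusted p under 0.05 limma gave 12 and 3. The difference of GARS1 was then -1.42 ± 0.08 and that of IARS1 -1.22 ± 0.08. With the 18S level, 0 cytosolic genes were called in either direction in HPB-ALL, against 0.157% of all genes higher and 0.106% lower, and 3 higher and 3 lower at an unadjusted p under 0.05. The differences of CARS1 (0.44 ± 0.10, limma adjusted p = 0.144) and AARS1 (0.51 ± 0.12, limma adjusted p = 0.144) kept their sign and lost the call. In that fit 9 cytosolic genes remained called higher in the difference between the lines, against 279 of all 19775 genes. Lower in KOPT-K1 were 13 cytosolic genes, against 2491 of all 19775. With arrays made equal in distribution by quantile normalization, 8 cytosolic genes were called lower in KOPT-K1 (GARS1 at -0.78), against 0.561% of all genes, and CARS1 alone was called higher in HPB-ALL (0.38 ± 0.07, limma adjusted p = 0.0162).

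The 8 genes lower in KOPT-K1 after quantile normalization were GARS1, IARS1, EPRS1, SARS1, CARS1, AARS1, LARS1 and NARS1. The part of RNA quality or carry-over in the HPB-ALL differences was not tested beyond these fits.

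**Figure D5:**
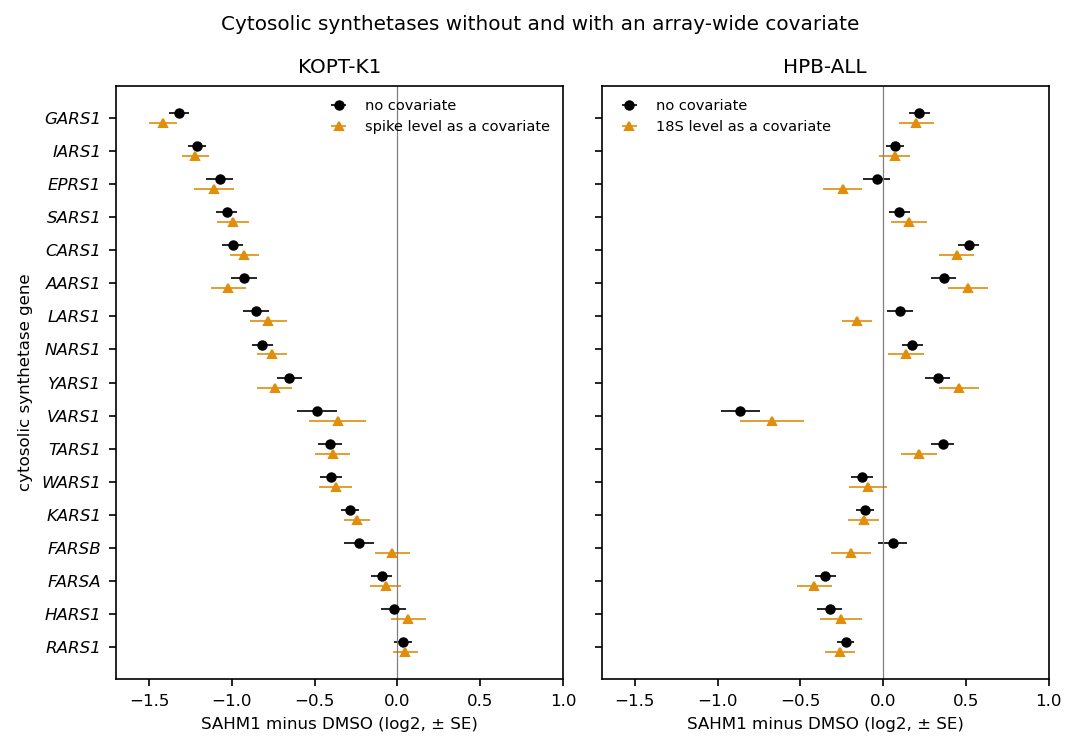
Difference SAHM1 minus DMSO (horizontal axis, log2, bars of 1 SE from limma) of the 17 cytosolic genes (vertical axis) without a covariate (black circles) and with one (orange triangles): the spike level in KOPT-K1 on the left, the 18S level in HPB-ALL on the right. GARS1 lies at -1.32 and -1.42 in KOPT-K1, and CARS1 at 0.52 and 0.44 in HPB-ALL.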

How the data were processed

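Total RNA from 12 cultures was hybridised to arrays with 54675 probe sets, and the submitters' processing notes name RMA, with its version not given in the sources used here. Linear ratios were deposited: in all 54675 probe sets the mean of a line's 3 DMSO arrays was 1 within 0.000001, and values ran from 0.0827 to 6.98. Tests used their log2, without a pseudocount. Of the probe sets, 41097 carried 1 symbol in the platform annotation and were averaged per gene, giving 19775 genes; 1801 with several symbols and 11777 not listed were left out of gene means. limma 3.58.1 in R 4.3.3 fitted all 12 arrays as 4 groups (8 residual degrees of freedom), with Benjamini-Hochberg adjustment over all genes, and a second fit used single probe sets; the script was tested on simulated data. With 3 arrays against 3, an exact permutation test cannot go below p = 0.1, so none was run. Median SE within a line was 0.0726 for the members.

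The members, their classes and the lists of other genes were chosen with earlier results of these data known. All 35 members were to be named, and from the lists the called genes, or the 4 with the smallest p per list and line where more were called. Same-numbered DMSO and SAHM1 arrays did not deviate together (correlations -0.0548 to 0.0676 over 6 pairs), so the numbers were taken as names. No pair of arrays was identical, and no filter on low values could be set on ratios. Alternatives were a replicate block, single lines, quantile and median scaling, the median over probe sets, and probe sets without the suffixes _x_at and _s_at. The first suffix marks possible cross-hybridisation and the second a sequence shared by several transcripts. Further alternatives were 18S or spike covariates, robust moderation, and leaving out each array. The covariate and quantile fits were extended to the genes of the lists after the data had been seen.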

Additional observations from a re-analysis of the deposited data

Results flagged for a closer look

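The response to SAHM1 differed between the lines, by limma's interaction test (HPB-ALL minus KOPT-K1), in 12 synthetase genes. In 11 the response was higher in HPB-ALL: GARS1 (1.54), CARS1 (1.51), AARS1 (1.29), IARS1 (1.28), SARS1 (1.13), EPRS1 (1.04), NARS1 (0.99), YARS1 (0.98), LARS1 (0.96), TARS1 (0.77) and the mitochondrial WARS2 (0.32). In RARS1 it was lower (-0.26). Among all genes the same test called 11.4% higher and 5.41% lower. The groups hold 3 arrays each, too few to look for single outlying arrays by the usual test.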

How the results depend on the processing

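Every synthetase called in a contrast kept its sign under the alternatives run, and the calls varied. Quantile normalization, which forces arrays to one distribution, gave 8 cytosolic and 0 mitochondrial genes lower in KOPT-K1, and in HPB-ALL 1 cytosolic gene higher, 2 lower and 0 mitochondrial lower. Without _x_at and _s_at probe sets, which left 12 cytosolic genes measured, the same counts were 7, 3, 3, 2 and 1. GARS1, IARS1, EPRS1, LARS1 and VARS1 had no other probe sets and could not be checked in this setting. With the 18S covariate the 3 HPB-ALL counts were 0, 0 and 0. With the spike covariate 0 mitochondrial genes were lower in KOPT-K1 and 1 in HPB-ALL. With the replicate block 3 cytosolic genes were higher and 0 mitochondrial lower in HPB-ALL. The single calls of RARS1 (lower) and WARS2 (higher) in the difference between lines became 0 in each of these 5 settings. Leaving out each array gave 12 to 14 cytosolic and 3 to 7 mitochondrial genes lower in KOPT-K1, 3 to 5 cytosolic higher, 2 to 4 lower and 0 to 3 mitochondrial lower in HPB-ALL, and in the difference 10 to 11 cytosolic higher, 0 to 1 lower, and 0 to 1 mitochondrial in either direction. In HPB-ALL, 3 cytosolic risers were left without SAHM1 replicate 2, and 2 cytosolic genes were lower without DMSO replicate 3 or SAHM1 replicate 1 or 2. The causes of these changes were not tested. A filter on low values was not run, since ratios hold no level, and how far a probe set stood above background is unknown.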
